A study of Mus musculus with 6 samples.

Results

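The FoxO genes encode the forkhead box O transcription factors, and the mouse has 4 of them, Foxo1, Foxo3, Foxo4 and Foxo6. All 4 were measured on Affymetrix Mouse Gene 1.0 ST arrays of skeletal muscle, where each had 1 probe set out of 21212, of which 18782 carried a gene name of their own. The members were taken by gene symbol, as all 4 FoxO genes, with earlier results of these arrays known. The study names Foxo1 and Foxo3 among the genes that rose in the same samples. The muscle came from male CDF1 mice that were 8 weeks old. C26 mice carried tumors grown from C26 adenocarcinoma cells, a mouse colon cancer line that causes muscle wasting, injected under the skin of both flanks in PBS and matrigel. Control mice received PBS and matrigel without cells. Gastrocnemius and plantaris muscles were taken 25 days later from 4 C26 mice and 3 control mice. Each array received the combined RNA of 2 to 3 muscles from the same group, so that there were 3 C26 pools (replicates 1, 3 and 4) and 3 control pools (replicates 1, 2 and 3). The sources used here do not say which mice went into which pool. Pools of a group may share a mouse, and the p-values below therefore measure only the spread between pools.

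FoxO proteins bind DNA through a forkhead domain and mostly activate their targets. When insulin or IGF-1 activates the kinase AKT, AKT phosphorylates FoxO proteins, 14-3-3 proteins bind them and they are kept out of the nucleus. When AKT activity is low, FoxO proteins enter the nucleus, and in muscle they induce the ubiquitin ligases Fbxo32 (atrogin-1) and Trim63 (MuRF1) and genes of autophagy, which together break down muscle protein. The arrays measured mRNA only, so phosphorylation and location of the FoxO proteins are outside these data.

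The 6 arrays were alike in scale, with medians of 4.93 to 5.02 on the log2 scale. Pearson's r over all probe sets was 0.994 to 0.996 between arrays of a group and 0.976 to 0.981 between groups. A probe set was counted as above background when its group mean exceeded 3.82, the 95th percentile of 1290 probe sets for olfactory, vomeronasal and taste receptor genes. In these bulk samples, fewer cells of a type and less RNA per cell cannot be told apart.

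The 4 FoxO genes did not move together. In C26 muscle Foxo1 and Foxo3 mRNA rose, Foxo6 mRNA fell and Foxo4 gave no difference beyond the spread between pools. With limma, 2 of the 4 were called higher, against 5.94% of all probe sets, and 1 of the 4 was called lower, against 4.95%. A gene was called when its Benjamini-Hochberg adjusted p over all 21212 probe sets was at most 0.05 and it changed at least 1.5-fold (0.58 on the log2 scale). An adjusted p of at most 0.05 alone was reached by 3 of the 4, against 30.1% of all probe sets. A test with equal variances made the same calls, 2 higher and 1 lower, against 5.33% and 4.41% of all probe sets, and a test with unequal variances called 2 higher (3.58% of all) and 0 lower (2.93%). Without overlap between the groups, 2 of the 4 genes were higher and 1 lower in C26 muscle, against 19.3% and 24.6% of all probe sets, or 43.9% in either direction. All 4 lay above background in both groups.

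Foxo1, the member best known for its control of glucose metabolism and muscle mass, showed the widest gap between the groups. Its log2 values were 9.68, 9.69 and 9.67 in C26 pools, against 7.53, 7.61 and 7.65 in control pools. The 3 C26 pools were nearly equal and all lay above every control pool, with a gap of 2.02 between the nearest pools. The means were 9.68 ± 0.01 in C26 muscle and 7.60 ± 0.06 in control muscle (SD, n = 3 each). This is a log2 change of 2.08 ± 0.07 (SE; 95% interval 1.92 to 2.25), or 4.24-fold, with an adjusted p of 1.45e-06 by limma. Among all probe sets it ranked 51 by size of rise and 13 by p.

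Foxo3, known for inducing atrogin-1 and autophagy genes in muscle, was also higher in C26 muscle. Its log2 values were 8.48, 8.21 and 8.19 in C26 pools, against 6.88, 6.87 and 7.06 in control pools. Every C26 pool again lay above every control pool, here with a gap of 1.12, and C26 replicate 1 stood somewhat above the other 2. The mean was 8.29 ± 0.16 in C26 muscle and 6.94 ± 0.11 in control muscle (SD, n = 3 each), a log2 change of 1.35 ± 0.10 (SE; 95% interval 1.12 to 1.59) or 2.55-fold. limma gave it an adjusted p of 3.72e-05. It ranked 196 by size of rise and 325 by p.

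Foxo4, also a target of AKT, had log2 values of 8.84, 8.74 and 8.66 in C26 pools, against 8.75, 8.61 and 8.74 in control pools. The groups overlapped. The mean was 8.75 ± 0.09 in C26 muscle and 8.70 ± 0.08 in control muscle (SD, n = 3 each). The difference was 0.05 ± 0.08 on the log2 scale (SE; 95% interval −0.14 to 0.23), with an adjusted p of 0.725 by limma. A change of 1.5-fold in either direction lay outside that interval.

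Foxo6, which is best known from brain and whose protein lacks part of the export control of the other members, had log2 values of 4.63, 4.58 and 4.21 in C26 pools, against 5.12, 5.21 and 5.32 in control pools. All C26 pools were below all control pools with a gap of 0.50, and C26 replicate 4 was the lowest. The means were 4.47 ± 0.23 in C26 muscle and 5.22 ± 0.10 in control muscle (SD, n = 3 each). The log2 change was −0.75 ± 0.12 (SE; 95% interval −1.02 to −0.47), a 1.68-fold fall, with an adjusted p of 0.00183 by limma. With a test that allows unequal variances the adjusted p was 0.0869, and the call was lost. The signal was dim. Of the 1290 receptor probe sets used to set the background, 21 (1.63%) lay above the C26 mean of Foxo6 and 7 (0.543%) above its control mean.

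**Figure D1:**
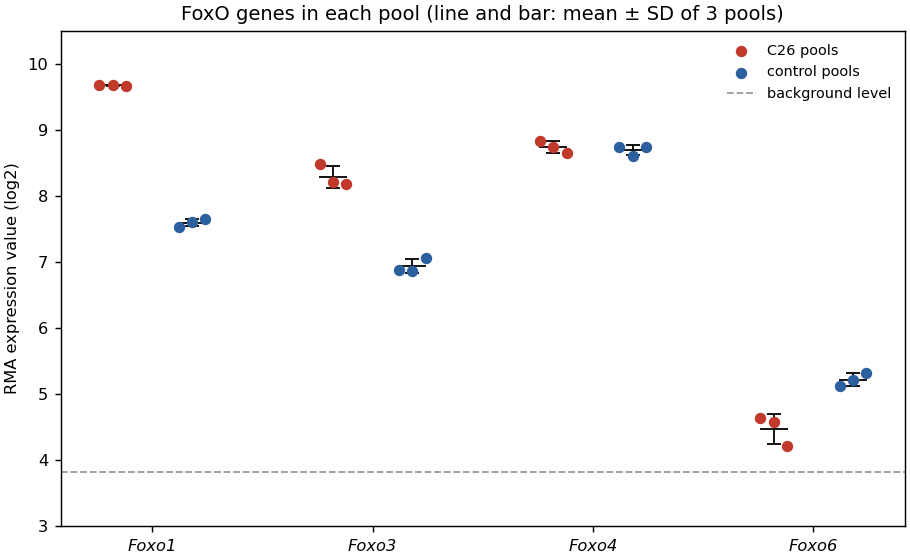
Log2 values (RMA, vertical axis) of Foxo1, Foxo3, Foxo4 and Foxo6 in each of the 3 C26 pools and the 3 control pools, with the mean ± SD as a line and bar. C26 pools lie above control pools by at least 2.02 for Foxo1 and 1.12 for Foxo3 and below them by at least 0.50 for Foxo6, and the groups overlap for Foxo4.

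Whether the members changed by different amounts was tested on each of the 6 pairs of FoxO genes. The log2 value of one gene was subtracted from that of the other within an array, and these differences were compared between the groups. Each probe set has its own affinity for its transcript, so the order of levels between FoxO genes within a group cannot be read from the arrays, whereas the change of a difference between the groups can. In no pair did the groups overlap. The 6 pairs are built from the same 4 genes and are not separate results. Of all single probe sets, 43.9% also had no overlap between the groups, and the share over other pairs of genes was not computed. The exact permutation test (two-sided) gave p = 0.1 for every pair, adjusted p = 0.1 over the 6 pairs, and 0.1 is the smallest p that 3 pools against 3 can give.

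Foxo1 minus Foxo3 was 1.21, 1.48 and 1.48 in C26 pools, against 0.65, 0.74 and 0.59 in control pools. Foxo1 thus rose by 0.73 ± 0.10 more than Foxo3 on the log2 scale (SE, n = 3 each), a 1.66-fold change of their ratio. Foxo1 minus Foxo4 was 0.85 to 1.01 in C26 pools and −1.22 to −1.0 in control pools, a change of 2.04 ± 0.08 (SE). Foxo3 minus Foxo4 was −0.36, −0.53 and −0.48 in C26 pools, against −1.87, −1.74 and −1.68 in control pools, a change of 1.31 ± 0.07 (SE). Both genes that rose thus did so relative to Foxo4 on the same arrays.

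The pairs with Foxo6 included the widest shifts. Foxo1 minus Foxo6 averaged 5.21 in C26 pools and 2.38 in control pools, a change of 2.83 ± 0.13 on the log2 scale (SE) or 7.12-fold in their ratio. Foxo3 minus Foxo6 averaged 3.82 in C26 pools and 1.72 in control pools, a change of 2.10 ± 0.10 (SE). Foxo4 minus Foxo6 averaged 4.27 in C26 pools and 3.48 in control pools, a change of 0.79 ± 0.12 (SE). The dim Foxo6 signal enters all 3 of these pairs.

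**Figure D2:**
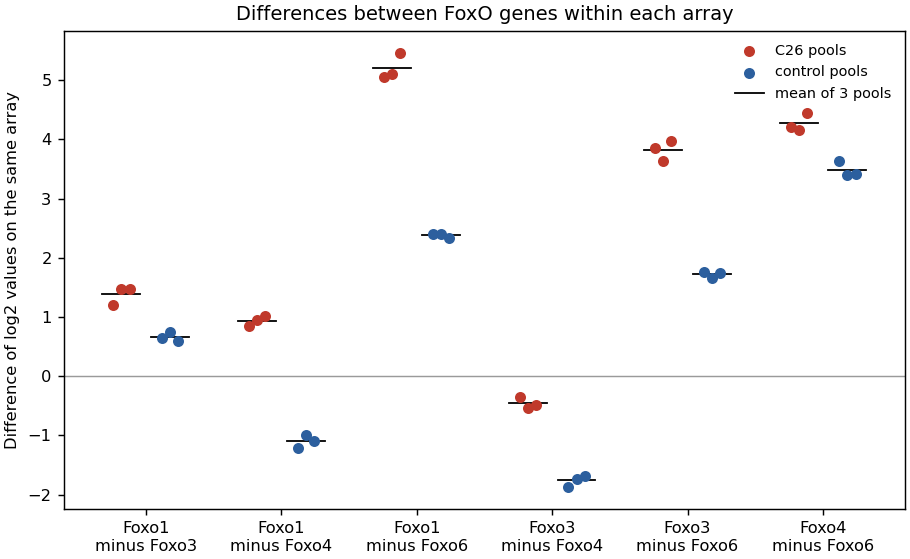
Difference of log2 values between FoxO genes within each array (vertical axis) for the 6 pairs, with 1 point for each of the 3 C26 pools and the 3 control pools. The groups are apart in all 6 pairs, with the smallest shift for Foxo1 minus Foxo3 (0.73) and the largest for Foxo1 minus Foxo6 (2.83).

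The other forkhead genes place these changes within the wider family, which shares the DNA-binding domain. Of 39 other forkhead genes measured, 29 lay above background, 2 (5.13%) were called higher with limma and 0 lower, against 5.94% higher and 4.95% lower over all probe sets, and 37 were not called. At an unadjusted limma p of at most 0.05, 5 were higher and 4 lower. Over all probe sets, 30.1% reached even an adjusted p of at most 0.05 in either direction. The test with equal variances called 2 higher and 0 lower, and the test with unequal variances 1 and 0. The median log2 change of the 39 was −0.09, against −0.05 over all probe sets. Foxk1, a forkhead factor known to repress autophagy genes when mTOR is active, had log2 values of 8.19, 7.96 and 7.98 in C26 pools and 6.95, 6.86 and 7.03 in control pools, a change of 1.10 ± 0.09 (SE, limma adjusted p = 6.06e-05). Foxp1, a repressor studied for its antagonism to FoxO factors, had 7.14, 6.93 and 7.03 in C26 pools and 6.42, 6.41 and 6.39 in control pools, a change of 0.63 ± 0.08 (SE, limma adjusted p = 0.000528). Without C26 replicate 1 only 1 of the 39 was called higher. The changes of Foxo1 and Foxo3 were larger than that of any other forkhead gene measured, which ran from −0.51 to 1.10.

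**Figure D3:**
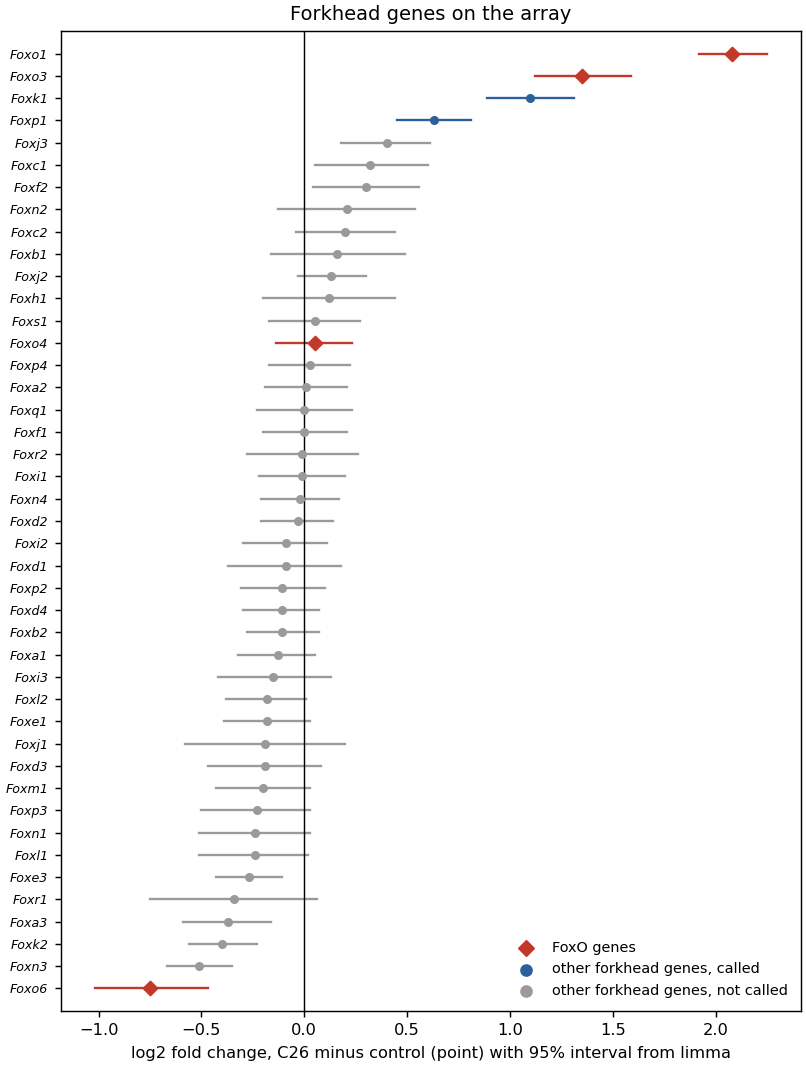
Log2 change, C26 minus control (limma, horizontal axis; point with its 95% interval), of the FoxO genes and the 39 other forkhead genes measured on the array. Foxo1 (2.08) and Foxo3 (1.35) lie above and Foxo6 (−0.75) below the others, which run from −0.51 to 1.10.

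Genes of the insulin pathway upstream of FoxO changed in both directions. Of 35 genes for insulin, IGF, their receptors, PI3K, AKT, SGK and their regulators, 32 had a named probe set. Of these 8 were called higher with limma, 3 (9.38%) lower and 21 were not called, with a median log2 change of 0.08. Over all probe sets, limma called 5.94% higher and 4.95% lower. The test with unequal variances called 4 higher and 1 lower, against 3.58% and 2.93% of all probe sets. The lower calls thus rest on few genes. With unequal variances, calls in both directions were fewer, as they were over all probe sets. Irs2, an insulin receptor substrate that is itself a FoxO target, had log2 values of 8.64, 9.30 and 9.06 in C26 pools, against 7.42, 7.37 and 7.29 in control pools, a change of 1.64 ± 0.15 (SE, adjusted p = 9.99e-05). Akt1 had log2 values of 9.64, 10.19 and 9.88 in C26 pools, against 8.59, 8.53 and 8.63 in control pools, a change of 1.32 ± 0.13 (SE, adjusted p = 0.000133). The AKT1 kinase holds FoxO proteins out of the nucleus, and its transcript was thus higher in the same pools as those of Foxo1 and Foxo3.

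Pik3r1, a regulatory subunit of PI3K, changed by 1.32 and the insulin receptor gene Insr by 0.85 on the log2 scale, both called by limma. Inppl1, which encodes the lipid phosphatase SHIP2 that opposes PI3K, averaged 7.24 in C26 pools and 8.19 in control pools, a change of −0.95 ± 0.12 (SE, adjusted p = 0.000629). Akt2 averaged 10.87 in C26 pools and 10.36 in control pools, a difference of 0.50 ± 0.08 (SE) with an adjusted p of 0.00225, which is under 1.5-fold and was not called. Irs1 had a difference of −0.38 ± 0.08 (SE, adjusted p = 0.00913) and was likewise not called.

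Among enzymes that modify FoxO proteins (AMPK subunits, sirtuins, acetyltransferases, other kinases and ubiquitin ligases), 34 of 35 were measured. limma called 1 (2.94%) higher, 3 (8.82%) lower and 30 not, against 5.94% higher and 4.95% lower over all probe sets. Prkag3, the AMPK regulatory subunit of fast muscle fibers, had the largest fall, with log2 values of 6.96, 6.12 and 6.33 in C26 pools and 9.23, 9.24 and 9.12 in control pools, a change of −2.73 ± 0.19 (SE, adjusted p = 2.42e-05). Sirt1, a deacetylase that acts on FoxO proteins, averaged 6.80 in C26 pools and 5.99 in control pools, a change of 0.81. The mitochondrial deacetylase gene Sirt3 and the AMPK subunit gene Prkab2 changed by −0.64 and −0.60. With each array centred on its median only 1 of the 34 was called lower. None of the 9 genes for 14-3-3 proteins and nuclear transport was called with limma. Their log2 differences ran from −0.27 to 0.01. At an unadjusted limma p of at most 0.05, 0 were higher and 1 lower, and either other test called 0. Even an adjusted p of at most 0.05 was reached by 30.1% of all probe sets in either direction.

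Of 23 partner transcription factors and cofactors of FoxO proteins, 20 were measured, with 5 called higher, 3 lower and 12 not called with limma. This list was chosen with earlier results of these arrays known, and the study names Cebpd, Stat3 and Junb for their rise in them. The shares over all probe sets were 5.94% higher and 4.95% lower. Cebpd, an acute-phase transcription factor, changed by 2.46, Stat3, which carries the IL-6 signal, by 1.42, Runx1 by 1.39 and Cebpb by 1.37. Myod1, the myogenic regulator, averaged 6.55 in C26 pools and 8.08 in control pools, a change of −1.53 ± 0.15 (SE, adjusted p = 0.000136).

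Known FoxO target genes of proteolysis and autophagy were mostly higher in C26 muscle. Of 30 such genes 28 were measured, and limma called 17 (60.7%) higher, 0 lower and 11 not, against 5.94% and 4.95% of all probe sets. The median log2 change was 0.89, against −0.05 over all probe sets. At an unadjusted limma p of at most 0.05, 1 was lower, and neither other test called any lower. Even an adjusted p of at most 0.05 was reached by 30.1% of all probe sets in either direction. The test with unequal variances called 11 higher. These genes were gathered with earlier results of these arrays known, and some are named by the study for their rise in the same samples, and the count therefore adds no separate evidence of direction. Trim63 averaged 11.54 ± 0.11 in C26 pools and 8.68 ± 0.27 in control pools (SD, n = 3 each), a change of 2.86 ± 0.13 (SE, adjusted p = 3.94e-06). Fbxo32 averaged 12.11 ± 0.02 in C26 pools and 9.99 ± 0.18 in control pools (SD, n = 3 each), a change of 2.12 ± 0.10 (SE, adjusted p = 3.89e-06). Gabarapl1, an ATG8 protein of the autophagosome membrane, changed by 2.49, the lysosomal protease gene Ctsl by 1.99 and the ubiquitin ligase gene Fbxo31 by 1.55.

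FoxO targets of metabolism, growth arrest, stress defense and cell death were also more often called higher than lower. This list, too, was chosen with earlier results of these arrays known. Of 39 such genes 38 were measured, with 18 (47.4%) called higher, 3 (7.89%) lower and 17 not called. Of all probe sets, 5.94% were called higher and 4.95% lower. The median log2 change of the list was 0.56. Sesn1, an inhibitor of mTORC1, averaged 9.93 ± 0.03 in C26 pools and 6.56 ± 0.19 in control pools (SD, n = 3 each), a change of 3.37 ± 0.10 (SE, adjusted p = 7.26e-07). Cdkn1a, which encodes the cell cycle inhibitor p21, changed by 2.81, the translation repressor gene Eif4ebp1 by 2.46, Gadd45a by 2.23 and Klf15 by 1.92. The 3 genes called lower are named because they are few, after their values had been seen. Bcl6, a transcriptional repressor, averaged 6.90 ± 0.14 in C26 pools and 8.67 ± 0.10 in control pools (SD, n = 3 each), a change of −1.77 ± 0.10 (SE, adjusted p = 7.6e-06). Sesn3 changed by −1.0 and Sod2, the mitochondrial superoxide dismutase, by −0.66. Among the sestrins, Sesn1 thus rose and Sesn3 fell in the same pools, and Sesn2 had a difference of 0.03 that was not called. Without C26 replicate 1 the number called lower was 5. Over both target lists, 35 of 66 genes (53.0%) were called higher and 3 (4.55%) lower, against 5.94% and 4.95% of all probe sets.

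**Figure D4:**
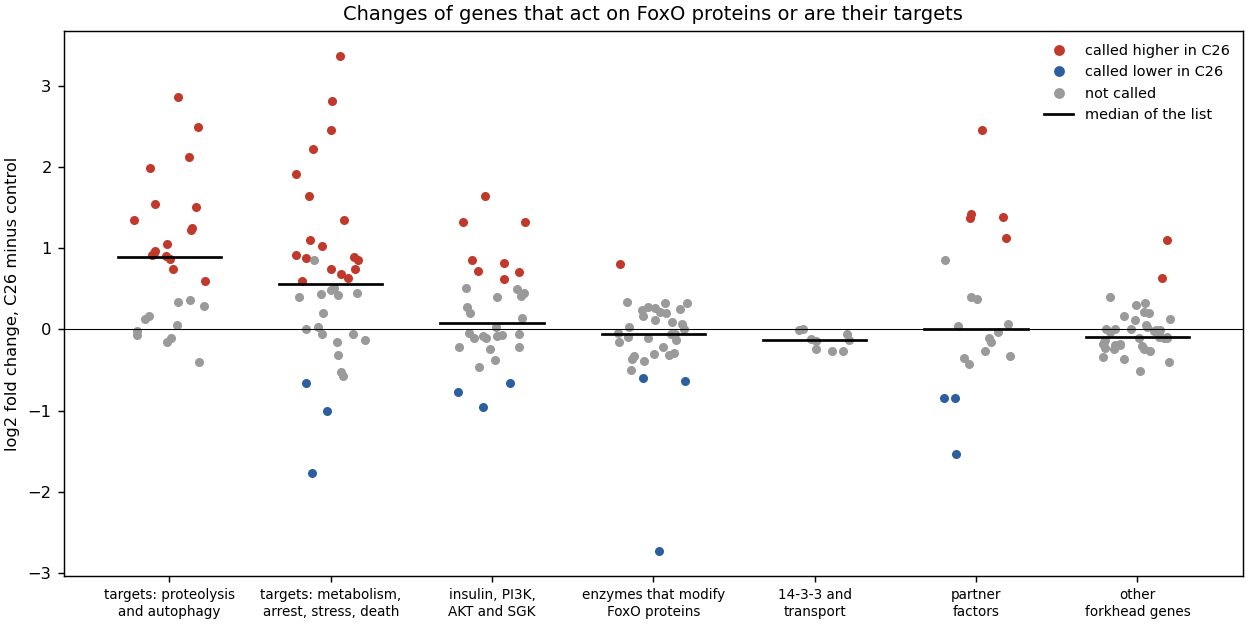
Log2 change, C26 minus control (limma, vertical axis), of each measured gene in the lists of FoxO regulators, partners and targets and of the other forkhead genes, colored by whether it was called, with the median of each list as a line. The median is 0.89 for targets of proteolysis and autophagy, 0.56 for targets of metabolism, arrest, stress and death, and between −0.13 and 0.08 for the other lists.

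The windows upstream of Foxo1 and Foxo3 are shown because both genes rose in C26 muscle. They are the 250 bases before the RefSeq start of each gene (GRCm38.p6), at chr3:52268087-52268336 on the plus strand for Foxo1 and chr10:42276696-42276945 on the minus strand for Foxo3, written 5′ to 3′. Capitals mark the GC box GGGCGG and the CCAAT box, searched on both strands, where they read CCGCCC and ATTGG on the reverse.
Foxo1 promoter: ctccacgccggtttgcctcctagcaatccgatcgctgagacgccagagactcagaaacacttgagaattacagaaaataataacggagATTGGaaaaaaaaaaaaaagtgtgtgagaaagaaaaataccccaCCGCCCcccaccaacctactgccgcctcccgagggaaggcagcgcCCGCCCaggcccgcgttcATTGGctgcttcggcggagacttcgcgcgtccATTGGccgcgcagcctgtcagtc
Foxo3 promoter: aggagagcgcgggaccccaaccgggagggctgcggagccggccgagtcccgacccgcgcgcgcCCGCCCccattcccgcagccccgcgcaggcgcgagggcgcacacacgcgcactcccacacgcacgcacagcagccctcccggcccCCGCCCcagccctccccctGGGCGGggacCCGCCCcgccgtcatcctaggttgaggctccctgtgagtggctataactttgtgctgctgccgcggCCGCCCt
The Foxo1 window held 2 GC boxes and 3 CCAAT boxes, and the Foxo3 window held 5 GC boxes and 0 CCAAT boxes. Their GC content was 56.0% for Foxo1 and 76.4% for Foxo3, against a median of 52.4% over 32851 such windows. A GC box occurred in 32.7% of all windows and a CCAAT box in 33.8%. The FoxO motifs GTAAACA, held by 3.17% of windows on either strand, and CAAAACA, held by 5.56%, had no match in the Foxo1 or the Foxo3 window, which says only that these letters are not within those 250 bases.

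GTAAACA is the sequence that forkhead domains bind best, and the target genes with a match are shown so that their response can be read beside it. Of the 66 target genes measured, 55 had a window in the RefSeq table, and 5 of these (9.09%) held the motif. By gene, 3.54% of all those in the table did. The sites, with 11 bases on either side and the motif in capitals as it reads on the strand of the gene, are as follows (RefSeq, GRCm38.p6).
Trim63: cagtctgttctTGTTTACgacccccacgg
Bcl2l11: aagacactaggGTAAACAcgccggggtgg
Txnip: ttggaggcctgGTAAACAagggccaagta
Selenop: cagagggcgagGTAAACAacagggctata
Bbc3: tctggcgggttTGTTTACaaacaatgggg
They lie at chr4:134314915-134314943 for Trim63, chr2:128125800-128125828 for Bcl2l11, chr3:96557825-96557853 for Txnip, chr15:3270942-3270970 for Selenop and chr7:16310083-16310111 for Bbc3. Their log2 changes were 2.86 for Trim63 and 0.60 for Bcl2l11, which encodes the death protein BIM, and both were called higher. The log2 differences of the other 3, which were not called, were 0.44 for Txnip, 0.45 for Selenop and −0.06 for Bbc3. Of the 50 target genes without a match, 27 were called higher. Bcl2l11, Txnip, Selenop and Bbc3 are named for the motif, after their values had been seen. A match is a description of the letters, and binding was not measured here.

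The genes whose values followed each changed member most closely were found among 13345 named genes above background. Likeness was the root mean square distance between log2 values over the 6 arrays, after each gene was centred on its own mean. Most of this likeness is the size of the group difference, and the 6 points share their arrays. Nearest to Foxo1 was Fbxo32, itself a FoxO target, at a distance of 0.0703 (log2; Pearson's r 0.998 over the 6 arrays). Its log2 values were 12.09, 12.13 and 12.11 in C26 pools, against 9.81 to 10.16 in control pools. Both genes had C26 pools that were nearly equal, which choosing by distance favors. Lrrc58 (distance 0.0865) and Lrg1, a secreted glycoprotein of the acute phase (0.0879), came next.

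Nearest to Foxo3 was Ulk1, the kinase that starts autophagy, at a distance of 0.0552 (r 0.997). Ulk1 had log2 values of 9.72, 9.35 and 9.27 in C26 pools and 8.00, 8.03 and 8.28 in control pools, a change of 1.35 ± 0.13 (SE, limma adjusted p = 0.000133). Like Foxo3 it was highest in C26 replicate 1, and its highest control value was in control replicate 3. Such likeness pool by pool follows from choosing genes for closeness over these same 6 arrays. Zfyve1 (distance 0.0593) and Fam214a (0.0612) followed. Nearest to Foxo6 was Sertad4 (distance 0.0295, r 0.999), with 4.92, 4.84 and 4.47 in C26 pools and 5.35, 5.41 and 5.54 in control pools, and then Plekha6 (0.0681) and Epm2a, which encodes the glycogen phosphatase laforin (0.0706). In Foxo6 and all 3 of these genes the lowest value was in C26 replicate 4, which the same way of choosing favors.

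**Figure D5:**
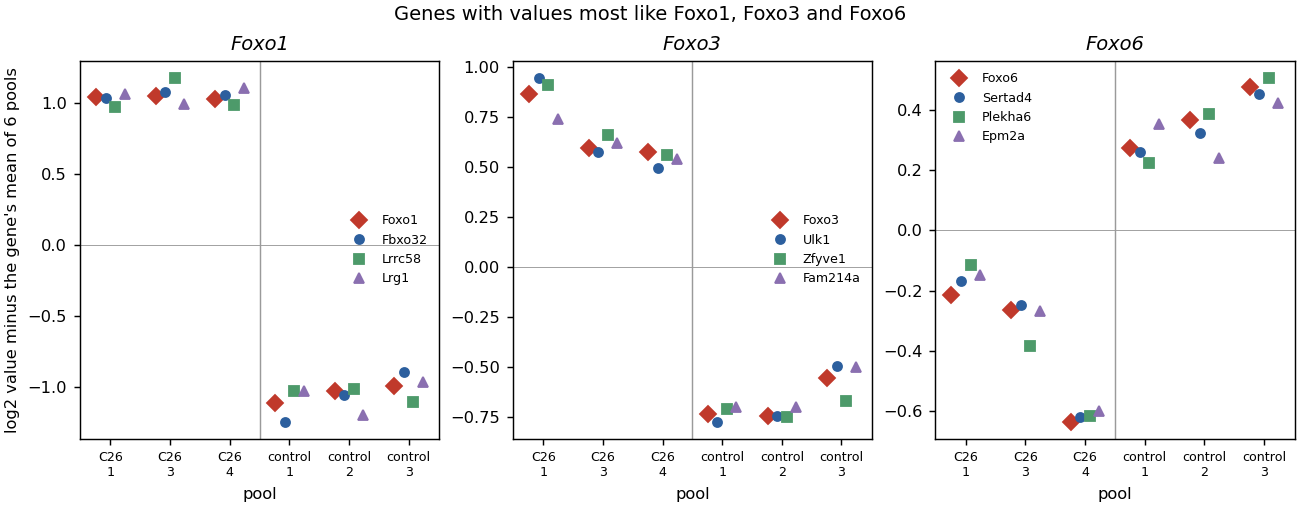
Log2 value minus the gene's mean over the 6 pools (vertical axis) in each C26 pool and control pool, for Foxo1, Foxo3 and Foxo6 and the 3 genes nearest to each. Fbxo32 lies 0.0703 from Foxo1, Ulk1 0.0552 from Foxo3 and Sertad4 0.0295 from Foxo6 (root mean square distance, log2).

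FoxO genes are also expressed outside muscle fibers, and markers of other cells moved between the groups. The sums below add linear values (2 to the power of the log2 value) over the markers of a cell type. Beside the counts of markers, 5.94% of all probe sets were called higher and 4.95% lower with limma. Of 10 muscle fiber markers, 1 was called lower and 0 higher, with sums of 39448 to 41387 in C26 pools and 42732 to 44273 in control pools, so the defining genes of the labelled tissue were present in all pools. Of 9 macrophage markers 4 were called higher, with sums of 1177 to 1211 in C26 pools and 751.1 to 805.0 in control pools. The 5 not called had log2 differences of 0.47 for Mertk, 0.44 for Lyz2, 0.02 for Csf1r, 0.0 for Adgre1 and −0.11 for Fcgr1. Of 10 neutrophil markers 6 were called higher, with sums of 253.8 to 301.1 in C26 pools and 114.9 to 127.7 in control pools. These probe sets were dim. Of the 6 called, Ngp lay below background in both groups and Cxcr2, S100a8 and Retnlg lay below it in control muscle, and Ly6g and Mpo, which were not called, lay below it in both groups. Muscle stem cell markers had 1 of 6 called higher, Sdc4 with a log2 change of 1.40, and sums of 1046 to 1227 in C26 pools and 667.3 to 723.7 in control pools. The median log2 change of the 6 was −0.02, and Pax7, the defining transcription factor of these cells, had a difference of −0.13 that was not called.

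Sums were lower in C26 muscle for fibroblast markers, with 6 of 10 called lower and 3889 to 4579 in C26 pools, against 7655 to 8719 in control pools. The collagen genes Col1a1 (log2 change −2.61) and Col1a2 (−2.29) fell most. Col3a1 (−1.17), Thy1 (−1.15), Dpt (−0.79) and Cd34 (−0.66) were also called lower, and Lum had a difference of −0.46 that was not called. Pdgfra, Pi16 and Dcn did not follow them, with log2 differences of 0.50, 0.41 and 0.03, none of which was called. Adipocyte markers had 3 of 7 called lower with limma and sums of 724.0 to 819.8 in C26 pools and 824.2 to 909.3 in control pools. The test with equal variances called only 1 of the 7 lower, and so did the test with unequal variances. Endothelial markers, from a cell type in which FoxO1 is active, had 1 of 10 called higher and 1 lower, with overlapping sums of 1767 to 1943 in C26 pools and 1768 to 1864 in control pools. Lymphocyte markers had 0 of 8 called with limma and 0 by either other test. At an unadjusted limma p of at most 0.05, 0 were higher and 2 lower. Even an adjusted p of at most 0.05 was reached by 30.1% of all probe sets in either direction. Their sums were 78.2 to 92.3 in C26 pools and 89.3 to 110.0 in control pools, and 5 of the 8 lay below background. The part of these cells in the changes of Foxo1, Foxo3 and Foxo6 was not tested.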

How the data were processed

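The deposited values are log2 expression values that the authors computed by RMA in GenePattern, using the Brainarray custom CDF (version 13), in which a probe set stands for 1 gene. RMA corrects background, normalizes by quantiles and summarizes probes, which makes arrays comparable for 1 probe set but not probe sets with each other. Per the methods, RNA integrity numbers were at least 8.0. A build for the annotation was not given in the sources used here. Names of probe sets came from the platform's symbols, of which 18771 matched a RefSeq table by gene ID, and 2420 remained unnamed but were tested.

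The comparison of C26 with control pools used the two-sided moderated test of limma 3.58.1 (R 4.3.3), and p-values were adjusted by Benjamini-Hochberg across the 21212 probe sets. Pairs of FoxO genes were tested by exact permutation in Python 3.11.15 with SciPy 1.17.1. Precision is limited by the 6 arrays. Scripts were tested on simulated data. Named genes were every FoxO gene, called forkhead genes, up to 5 called genes of largest change per list, a fixed set of genes (among them Akt1, Akt2, Insr, Irs1, Irs2, Fbxo32 and Trim63) and the 3 genes nearest to each called member. Any other target or marker gene was named after its values had been seen. The members and lists were chosen with earlier results of these data known. Alternatives were a test with equal variances and one with unequal variances (the methods name a parametric t-test and do not say which), limma with a trend or robust variances, 3 further scalings, a filter on dim probe sets, no minimum fold, a block for the replicate number, and omission of each pool in turn.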

Additional observations from a re-analysis of the deposited data

How the results depend on the processing

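Foxo1 and Foxo3 kept their calls under every alternative run, with log2 changes of 2.02 to 2.15 for Foxo1 and 1.26 to 1.42 for Foxo3. Foxo4 was never called and ranged from −0.07 to 0.11, and its difference turned to −0.07 after quantile normalization. Foxo6 ranged from −0.83 to −0.62 and lost its call in 1 setting, the test with unequal variances (−0.75, adjusted p = 0.0869). The filter on dim probe sets removed it. Leaving out each pool in turn gave 2.05 to 2.11 for Foxo1, 1.26 to 1.41 for Foxo3, 0.00 to 0.09 for Foxo4 and −0.83 to −0.62 for Foxo6. All 6 pair differences kept their sign. Over all probe sets, 760 were called higher and 621 lower with unequal variances, and 3041 higher and 3344 lower with no minimum fold, against 1261 and 1049 in limma with the minimum.

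Replicate numbers 1 and 3 occur in both groups, but the labels do not tie them to a mouse or batch. Deviations of same-numbered pools correlated at −0.061 and −0.057, and those of differently numbered pools at −0.025 to 0.071. With only 2 same-numbered pairs this cannot show whether such pools share a batch. The numbers were treated here as names. With the replicate block, log2 changes were 2.10 for Foxo1, 1.37 for Foxo3, 0.04 for Foxo4 and −0.62 for Foxo6, and no call among them changed. These changes rest on the 2 shared numbers only, as control replicate 2 and C26 replicate 4 have no partner. That fit left 1 residual degree of freedom.

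With unequal variances, counts fell to 1 lower of 34 FoxO-modifying enzymes and 1 lower of 20 partners, against 2.93% of all probe sets. With no minimum fold, 3041 of the 21212 probe sets were higher and 3344 lower, or 30.1% in either direction. Under that rule 14 of 32 upstream genes were higher and 5 lower, and 8 of 34 modifying enzymes higher and 10 lower. Of 20 partners, 7 were higher and 6 lower. Of 28 proteolysis and autophagy targets, 20 were higher and 1 lower, and of 38 other targets 24 were higher and 6 lower. Of 39 other forkhead genes, 3 were higher and 4 lower. After quantile normalization 1 other forkhead gene was called lower. The cause of these differences was not tested.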

Other observations

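CAAAACA, the core of the insulin response element that FoxO proteins bind, was also searched in the windows of the FoxO target genes. It was found in 5 of 55 windows (9.09%), against 6.38% of all genes in the RefSeq table. The 3 genes with a match that were called higher are shown, on the strand of the gene with the motif in capitals (reverse TGTTTTG; GRCm38.p6).
Irs2: gagtcacgtgtTGTTTTGctcttagttca
Gabarap: gggtactacttTGTTTTGgtgtcaacggc
Ccng2: cgtcgcagactCAAAACAaaaacaagg
These sites lie at chr8:11008949-11008977 for Irs2, chr11:69991216-69991244 for Gabarap and chr5:93267546-93267572 for Ccng2. The log2 changes in C26 muscle were 1.64 for Irs2, 0.74 for Gabarap, an autophagosome protein of the ATG8 family, and 0.68 for Ccng2, an unusual cyclin of arrested cells. The other 2 genes with a match, G6pc and Igfbp1, are mainly liver genes, and their log2 differences of 0.00 and −0.31 were not called. Of the 50 target genes without a match, 26 were called higher. Genes in this paragraph were named for holding the motif, after their values had been seen.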
